A study of Arabidopsis thaliana with 64 samples.

Results

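Among 22810 probe sets measured in Arabidopsis thaliana roots, 53 were selected on their higher intensity with nitrate. They were chosen by 3 conditions on log2(intensity + 1). The mean of the 32 arrays with nitrate lay at least 0.6 above the mean of the 32 arrays without it. The group means differed in that direction in at least 15 of 16 backgrounds, a background being 1 combination of the other 4 signals. Nitrate also had the largest absolute averaged difference of the 5 signals. The first condition held for 656 of the 22746 probe sets other than array controls, the first and second for 69, and all 3 for 55. HHO1 (AT3G25790, 1.85) and PGD1 (AT1G64190, 1.07) also met all 3 conditions and were left out by name. The annotation gave 1 gene for 28 of the 53, and the other 25 are called by their probe set ID.

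The series profiled roots of hydroponic plants with 1 array per sample and 2 arrays in each of 32 groups, which held every combination of nitrate, ammonium, the auxin IAA (indole-3-acetic acid), the cytokinin kinetin and the drought hormone ABA (abscisic acid). All plants had grown with 0.5 mM ammonium succinate and 3 mM sucrose, spent 24 h without nitrogen and were treated for 4 h. Nitrate or ammonium alone was given at 1 mM, both together at 0.5 mM each, IAA and kinetin at 500 nM, and ABA at 1 µM, with potassium chloride and DMSO as mock treatments. The labels give an age of 12 to 14 days in one place and 14 to 16 days in another, and do not say whether duplicate arrays came from separate cultures. The p-values therefore measure the spread between duplicates, which may be technical.

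Nitrate is taken up by root transporters, reduced to nitrite in the cytosol and, after transport of nitrite into plastids, to ammonium, which glutamine synthetase and glutamate synthase build into amino acids. Nitrate is also a signal. Transcription factors of the NLP family carry it to genes of nitrate transport and reduction, of the supply of reductant and organic acids, and of further regulators, within minutes to hours of its arrival. The design separates this signal from nitrogen supply in part, since ammonium is a source of nitrogen that need not be reduced.

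Without nitrate and ammonium, the mean log2 intensity over the 53 ranged from 7.86 to 8.81 on 16 arrays, with a median of 8.46. It ranged from 8.41 to 9.17 (median 8.87) on the 16 arrays with ammonium only. With nitrate only it ranged from 9.51 to 10.39 (median 10.06), and with both ions from 9.43 to 10.28 (median 10.06). No array without nitrate reached any array with nitrate, a separation the choice of members largely fixes. The individual differences are on the log2(intensity + 1) scale and ran from 0.64 to 4.32, with a median of 1.17. They amounted to at least 4-fold in 7 of the 53, at least 2-fold in 34 and under 2-fold in 19. With 64 in place of 1 as the added constant (pseudocount), 5 were at least 4-fold and 24 at least 2-fold. The difference was positive in all 16 backgrounds for 27 probe sets and in 15 for 26. In limma with Benjamini-Hochberg adjustment 48 of the 53 passed for the averaged nitrate difference, beside 0.545% of all probe sets, which the rule makes a description. The 5 that did not pass were AT3G43100, AT5G07810, AT5G19580, AT3G44000 and 266913_at. All 5 were among 14 whose mean without nitrate lay under the lowest array median. The files used here do not say which probe sets were above background, so the sizes for such dim members depend on the constant. With 64 the difference was over 1.5 times smaller in 14 of the 53, of which 13 were among the dim ones.

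**Figure D1:**
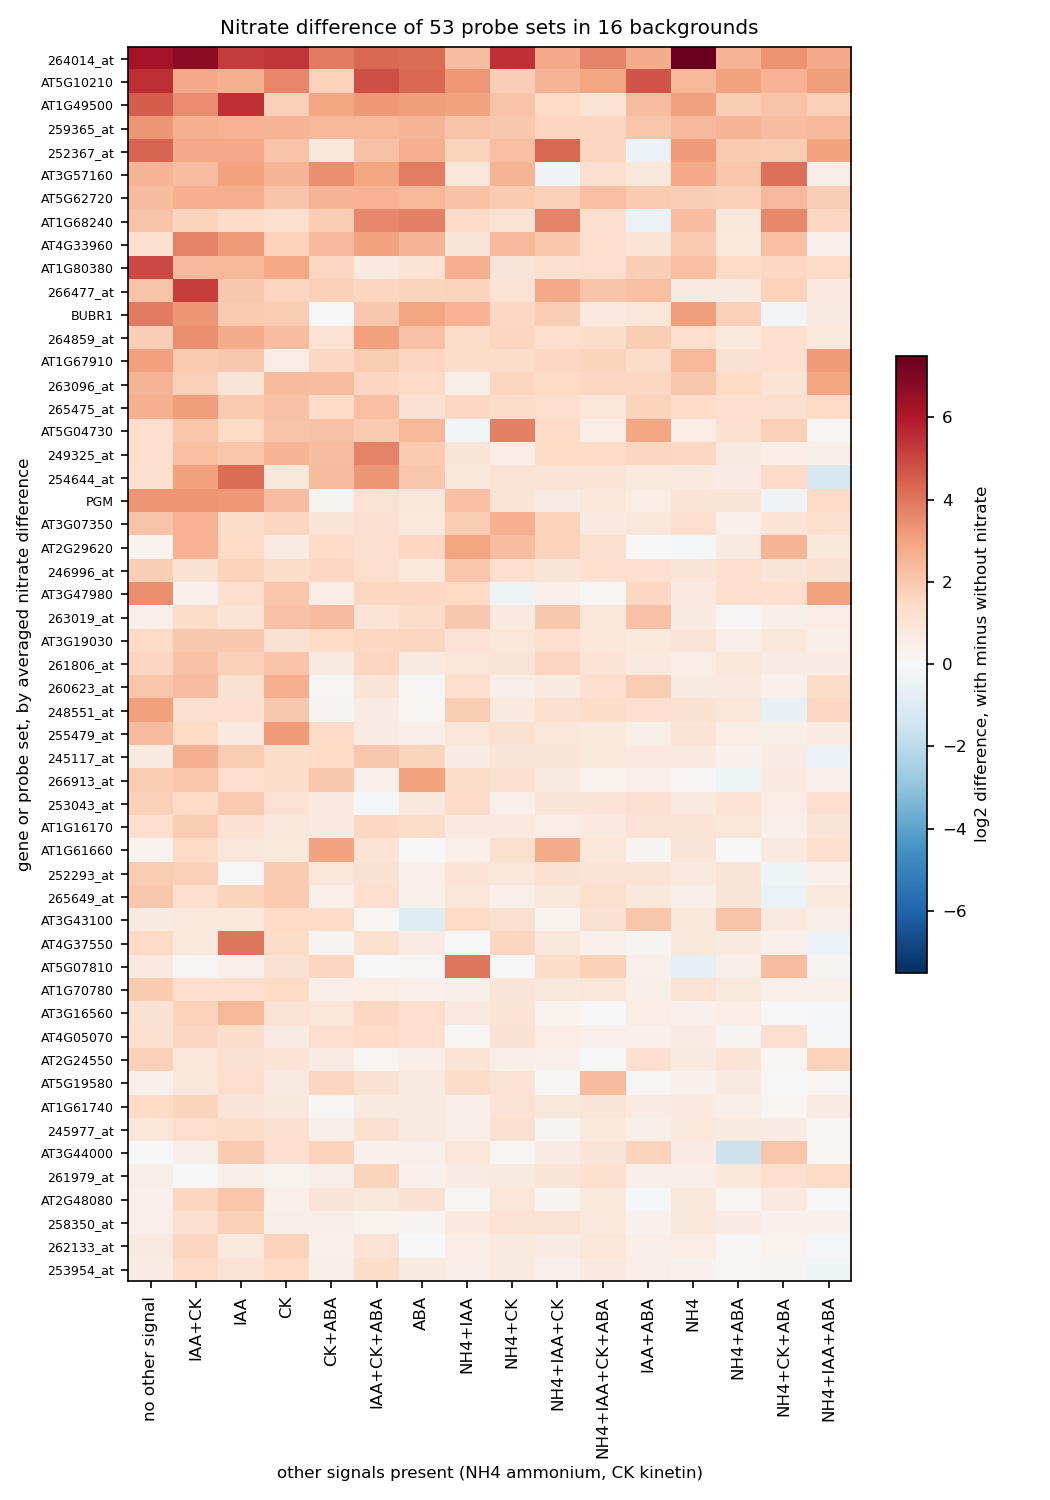
Each row is 1 of the 53 genes or probe sets, ordered by averaged nitrate difference, and each column is 1 of the 16 backgrounds, ordered by the median over the rows. Colour gives the log2 difference of group means with minus without nitrate (2 arrays against 2), red for higher with nitrate and blue for lower. The medians over rows fall from 1.82 without any other signal to 0.65 with ammonium, IAA and ABA.

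Genes with a known place in nitrogen and carbon metabolism come first. AT5G62720 encodes a protein of the HPP family that carries nitrite into the chloroplast, the step between nitrate and nitrite reductase. Its intensity was 422 and 349 on the mock arrays, 2002 and 1938 with nitrate alone, 457 and 544 with ammonium alone, and 1665 and 1989 with both ions. Over all hormone combinations it ranged from 222 to 501 (median 296) without nitrogen, from 211 to 889 (median 384) with ammonium only, from 967 to 2309 (median 1854) with nitrate only, and from 1060 to 2674 (median 1544) with both. The lowest of the 32 arrays with nitrate lay above the highest of the 32 without, which held for 1 of the 53 and for 0.0044% of all probe sets, that 1 being AT5G62720 itself. The averaged difference was 2.22 ± 0.12 (SE), or 4.67-fold, and it varied little between backgrounds, from 1.77 to 2.72.

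AT3G47980 encodes the other HPP-family nitrite transporter of chloroplasts and followed nitrate less closely. It stood at 224 and 38.3 on the mock arrays and at 952 and 1198 with nitrate alone. The range was 22.1 to 526 (median 119) without nitrogen, 21.5 to 375 (median 136) with ammonium only, 135 to 1198 (median 382) with nitrate only and 46.1 to 1239 (median 262) with both. These ranges overlap, and 7 of the 32 arrays with nitrate exceeded every array without it. The averaged difference was 1.27 ± 0.25, and the only background without a positive difference was ammonium with kinetin (-0.32). Over the 32 group means with the averaged nitrate difference removed, the profiles of the transporter pair correlated at r = 0.36. That value is a description over groups that share array-wide shifts of level.

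AT1G80380 encodes glycerate kinase, the last enzyme of photorespiration, which returns glycerate to the Calvin cycle in leaves. The mock arrays read 31.4 and 492 and thus differed widely, whereas nitrate alone gave 4069 and 3885, ammonium alone 1480 and 724, and both ions 4064 and 5919. The median was 662 without nitrogen, 1261 with ammonium only, 2599 with nitrate only and 3238 with both. Every array with both ions (2123 to 6069) lay above every array without nitrogen (31.4 to 1598). The rule favours such a separation, and its share over all probe sets is not given. The averaged nitrate difference was 1.92 ± 0.19, and the averaged ammonium difference of 0.75 was the next largest of its 5.

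PGM (AT1G78050), a phosphoglycerate mutase of the family that interconverts phosphoglycerates in glycolysis, had an averaged difference of 1.44 ± 0.19. It read 118 and 33.0 on the mock arrays, 623 and 651 with nitrate alone, 183 and 354 with ammonium alone and 506 and 541 with both. Over hormone combinations it ranged from 33.0 to 409 (median 195) without nitrogen and from 272 to 1104 (median 600.2) with nitrate only. AT4G37550, of the acetamidase and formamidase family, read 19.0 and 73.6 in the mock group, 116 and 99.8 with nitrate alone, 134 and 171 with ammonium alone and 262 and 284 with both. Its averaged difference was 0.89 ± 0.20 (0.57 with a pseudocount of 64), and 2 of the 32 arrays with nitrate stood above all arrays without. AT1G61740, of the sulfite exporter TauE/SafE family of membrane proteins, stood at 2127 and 1689 in the mock group and at 5391 and 5395 with nitrate alone, for an averaged difference of 0.79 ± 0.10.

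Genes of regulators follow. AT1G68240, of the bHLH family of transcription factors, had a median intensity of 13.3 without nitrogen, 16.2 with ammonium only, 77.0 with nitrate only and 97.3 with both. Its averaged difference was 1.95 ± 0.31 and only 0.76 with a pseudocount of 64, and single arrays with nitrate only went down to 4.76, and the difference was negative with IAA and ABA (-0.43). AT1G61660, which encodes bHLH112, had medians of 181, 187, 328 and 319 in the same order, and a difference of 0.99 ± 0.16. Between these 2 bHLH genes the profile correlation was -0.02. AT3G16560, of the protein phosphatase 2C family, had medians of 683, 1501, 1835 and 1998, so that ammonium only lay nearer to nitrate only than to no nitrogen. BUBR1 (AT2G33560), related to spindle checkpoint kinases, read 18.4 and 33.6 on the mock arrays and 330 and 448 with nitrate alone. Its averaged difference was 1.82, or 0.87 with a pseudocount of 64, and its ranges overlapped widely, from 5.65 to 119 without nitrogen and from 12.3 to 448 with nitrate only.

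The largest differences belonged to genes for which no role is given here. Probe set 264014_at read 12.7 and 9.16 on the mock arrays, 888 and 883 with nitrate alone, 4.49 and 5.00 with ammonium alone, and 953 and 996 with both ions. Its averaged difference was 4.32 ± 0.30, and 2.24 with a pseudocount of 64, its level without nitrate being among the dim ones. AT5G10210 read 71.2 and 97.3 in the mock group, 4001 and 3825 with nitrate alone, 347 and 248 with ammonium alone and 1208 and 2340 with both. Its difference was 3.26 ± 0.25, or 2.30 with a pseudocount of 64, and its level without nitrate was also among the dim ones. AT1G49500 read 983 and 750 in the mock group, 20693 and 18939 with nitrate alone, 8320 and 2227 with ammonium alone and 49879 and 25635 with both. In its case the arrays with ammonium only (1291 to 24958) overlapped both those without nitrogen (268 to 12359.5) and those with nitrate only (10800.1 to 56542). Among the probe sets without a name, 259365_at read 352 and 222 in the mock group and 2522 and 2965 with nitrate alone, and the dim 252367_at (2.34, or 1.40 with a pseudocount of 64) read 13.8 and 33.7 and then 428 and 516. The rest of the 25 had averaged differences from 0.64 (253954_at) to 1.88 (266477_at). AT4G33960, AT1G67910, AT3G07350 and AT3G19030 had averaged differences of 3.84-fold, 3.38-fold, 2.65-fold and 2.29-fold. For 3 dim genes the size rested on the pseudocount: AT3G57160 went from 2.23 to 1.22 with 64, AT5G04730 from 1.62 to 0.96 and AT2G29620 from 1.33 to 0.49.

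Smaller differences were those of AT1G16170 (1.00), AT3G43100 (0.91, or 0.30 with a pseudocount of 64), AT5G07810 (0.88, or 0.36 with 64, with SNF2 and helicase domains), AT1G70780 (0.86), AT4G05070 (0.83, wound-responsive family) and AT2G24550 (0.80). AT5G19580, which encodes a protein related to glyoxal oxidase, stood at 0.80, or 0.46 with 64. Just inside the threshold of 0.6 were AT2G48080 (0.69, a 2-oxoglutarate oxygenase family member), AT3G44000 (0.73, or 0.32 with 64) and AT1G61740. Just outside it were AT4G36010 (0.53), AT5G10460 (0.47) and AT5G39590 (0.44). The 28 named members lay on all nuclear chromosomes, with 9, 4, 7, 3 and 5 on chromosomes 1 to 5 by locus. The closest pair in the gene order was AT1G61660 and AT1G61740, 13 genes apart.

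**Figure D2:**
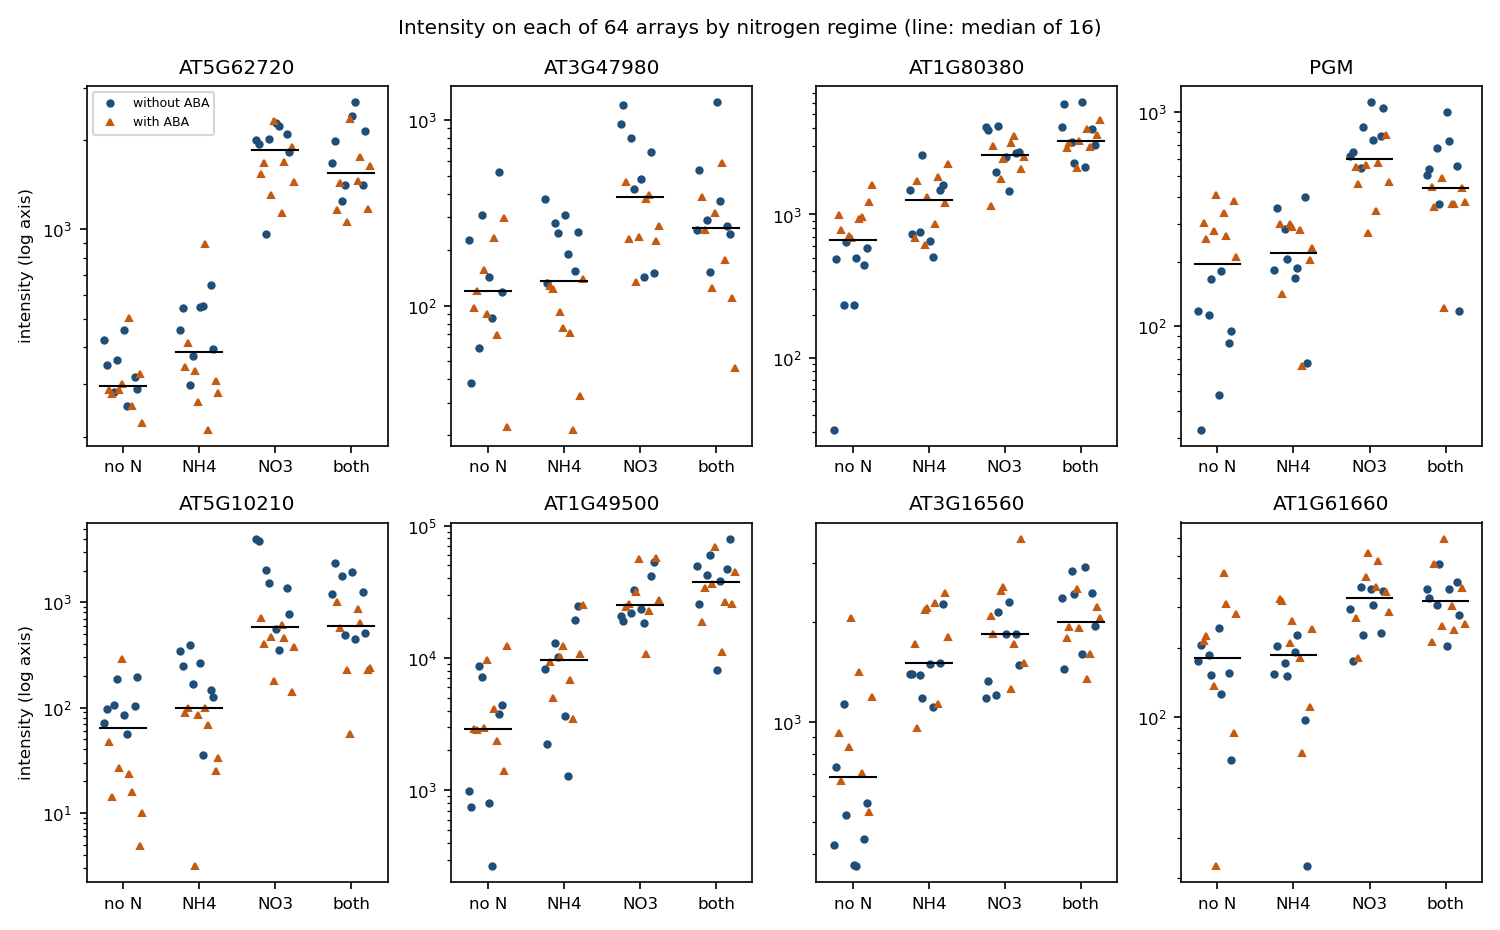
Points are intensities (log axis) of 8 genes on each of the 64 arrays, grouped as no nitrogen (no N), ammonium only (NH4), nitrate only (NO3) and both ions, 16 arrays each. Circles are arrays without ABA, triangles arrays with ABA, and lines the median of each 16. AT5G62720 separates completely by nitrate, whereas AT3G16560 with ammonium only (median 1501) lies near nitrate only (median 1835).

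The next comparison asked whether ammonium changed the nitrate difference. The median nitrate difference of the 53 was 1.43 without ammonium and 0.98 with it. Both differences were positive in all 53, which the rule largely fixes. The nitrate difference was smaller with ammonium in 45 of the 53 (23 of them among the 28 named genes), beside 55.0% of all probe sets. In the absence of nitrate, ammonium itself went with higher intensity in 46 of the 53 (median 0.39), where 59.9% of all probe sets were higher (median 0.09). In the presence of nitrate it was higher in 22 (median -0.09), beside 53.2% of all probe sets (median 0.02). The group means stood in the order no nitrogen, ammonium only, both ions, nitrate only for 25 of the 53, and nitrate only was the highest of the 4 for 31. Shares over all probe sets are not given for these orders.

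The interaction of nitrate and ammonium is the nitrate difference with ammonium minus that without, each over 8 combinations of hormones. It uses a contrast independent of the averaged nitrate difference, although the condition of a positive sign in 15 backgrounds limits how negative or positive it can be. Its median was -0.54 over the 53 and -0.06 over all probe sets, and the interaction of the array medians was -0.10. None of the 53 passed in limma at an adjusted p under 0.05, against 0.0132% of all probe sets. At an unadjusted p under 0.05 stood 16 of the 53 (30.2%, all negative) and 7.02% of all probe sets. AT3G16560 was at -0.98 ± 0.24 (95% interval -1.48 to -0.49, limma adjusted p = 0.277). Its nitrate difference was 1.34 without ammonium and 0.36 with it, and its ammonium difference 1.15 without nitrate and 0.17 with it. Probe set 264859_at was at -1.10 ± 0.28 (limma adjusted p = 0.277), AT1G49500 at -1.29 ± 0.39 (adjusted p = 0.507) and AT3G19030 at -0.64 ± 0.24 (adjusted p = 0.657).

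The intervals of other genes covered 0. AT5G62720 was at -0.42 (-0.90 to 0.06), AT1G67910 at -0.003 (-0.66 to 0.66) and AT1G68240 at 0.08 (-1.18 to 1.33). Wide intervals such as the last do not show that the nitrate difference was alike with and without ammonium. Adding ammonium to nitrate also lowered nitrate from 1 to 0.5 mM, so the presence of ammonium and the dose of nitrate cannot be told apart in this contrast. Ammonium likewise was at 1 mM alone and at 0.5 mM with nitrate. The nitrate difference with ammonium therefore also holds a change in the dose of ammonium, which cannot be told apart either.

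**Figure D3:**
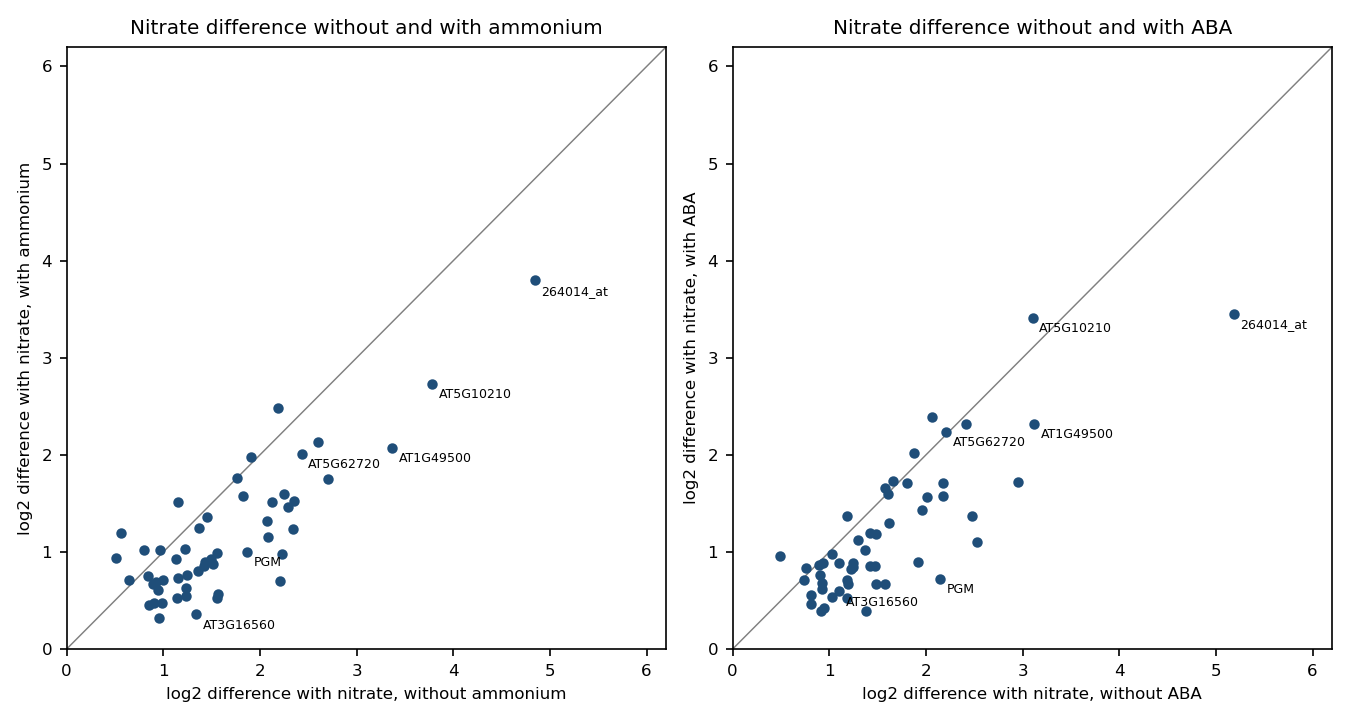
Each point is 1 of the 53 genes or probe sets. The left panel sets the log2 nitrate difference with ammonium against that without ammonium, and the right panel does so for ABA, each value over 8 backgrounds (16 arrays against 16). The grey line marks equality, and 45 points in the left panel and 44 in the right lie under it.

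A similar comparison was made for ABA. Nitrate differences had a median of 1.42 without ABA and 0.90 with it. They were smaller with ABA in 44 of the 53, beside 50.0% of all probe sets. The median interaction of nitrate with ABA was -0.35, against 0.00 over all probe sets and 0.01 for the array medians. At an unadjusted p under 0.05 stood 18 of the 53 (34.0%, all negative) and 4.07% of all probe sets. None of the 53 passed in limma at an adjusted p under 0.05. No probe set passed for nitrate with ABA, IAA or kinetin, a background of 0%.

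The lowest adjusted p belonged to PGM, at -1.42 ± 0.37 (95% interval -2.17 to -0.67, limma adjusted p = 0.706). The ABA difference of PGM was 0.84 without nitrate and -0.58 with nitrate, and its nitrate difference 2.15 without ABA and 0.72 with ABA. AT1G80380 had a like pattern, with an ABA difference of 0.90 without nitrate and -0.20 with it, and an interaction of -1.10 ± 0.37. AT3G07350, of the DUF506 family, stood at 1.62 for ABA without nitrate and 0.60 with nitrate. BUBR1 differed from these. Its ABA difference was -0.57 without nitrate and -1.99 with nitrate, and its interaction was -1.42 ± 0.49 (-0.93 with a pseudocount of 64). The ABA interaction of AT1G70780 was -0.65 ± 0.17 and that of AT4G37550 -0.98 ± 0.41 (-0.62 with 64). For AT5G62720 the interaction with ABA was 0.03, with an interval of -0.45 to 0.50. AT5G10210, the named gene with the lowest averaged ABA difference, had nitrate differences of 3.11 without ABA and 3.41 with it, but the sign of its interaction turned from 0.30 to -0.59 with a pseudocount of 64. Both the ammonium and the ABA interaction were negative in 38 of the 53, and 6 of the 53 had an unadjusted p under 0.05 in both. Shares over all probe sets are not given for these joint counts, so they describe the members only.

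**Figure D4:**
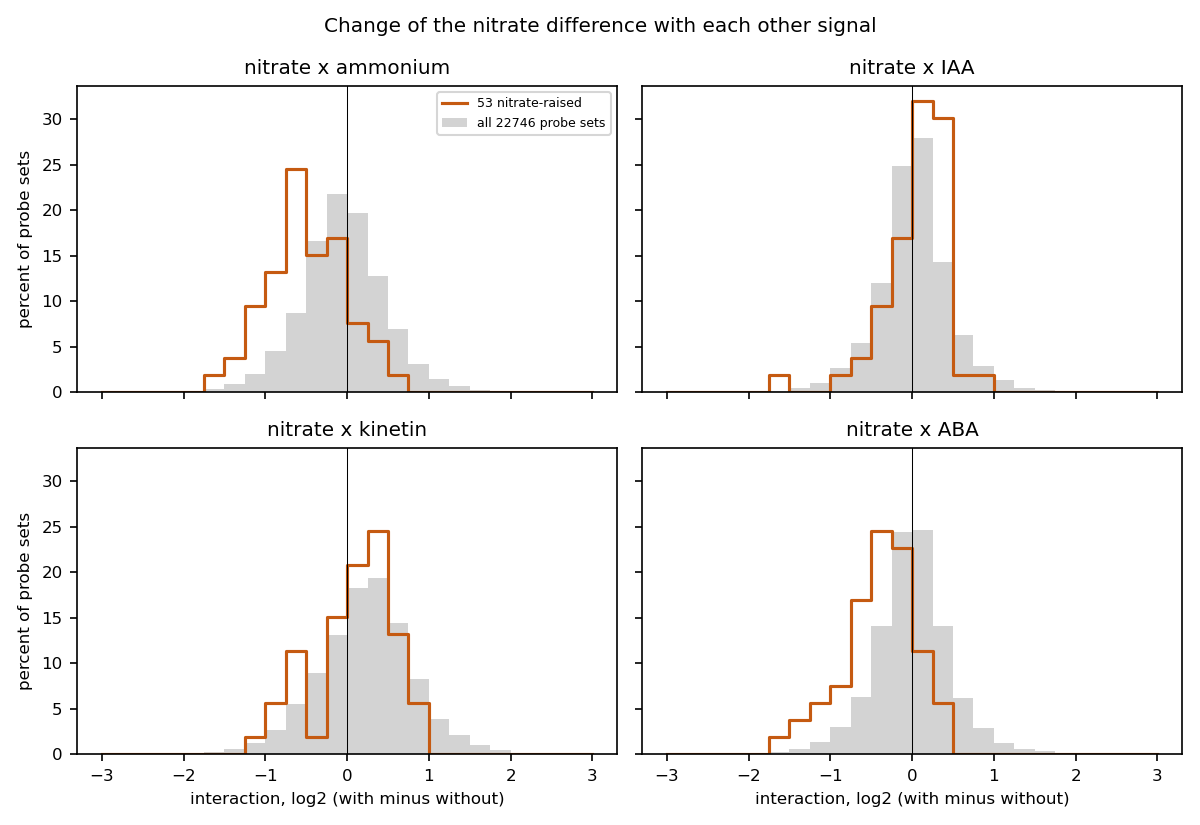
Histograms of the interaction of nitrate with ammonium, IAA, kinetin and ABA on the log2 scale, as the percent of probe sets per bin. Grey bars are all 22746 probe sets and orange lines the 53. The 53 lie to the left of all probe sets for ammonium (medians -0.54 and -0.06) and ABA (-0.35 and 0.00), and near them for IAA (0.15 and 0.03).

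With IAA the median interaction was 0.15 (all probe sets 0.03). An unadjusted p under 0.05 was reached by 2 of the 53 (3.77%), near the 2.91% of all probe sets. These were AT3G57160 at -1.57 ± 0.57 (-0.80 with a pseudocount of 64) and 266477_at at 0.88 ± 0.35 (0.56 with 64). For AT3G57160 the nitrate difference was 3.01 without IAA and 1.44 with it. With kinetin the median interaction was 0.15, under that of all probe sets (0.24). The array medians themselves had an interaction of 0.33. With the array median as a covariate the median of the 53 was 0.0039, after quantile normalization 0.023, and in replicate 2 arrays alone -0.09, so its sign is not settled. Of the 53, 10 had an unadjusted p under 0.05 in it (18.9%, 6 positive and 4 negative), beside 13.8% of all probe sets. AT1G61660 was at 1.00 ± 0.33 (95% interval 0.34 to 1.66, limma adjusted p = 0.300), and at 0.67 with a pseudocount of 64. Its nitrate differences were 0.49 without kinetin and 1.49 with it. AT3G47980 was at -1.06 ± 0.50 (-0.85 with 64), with a nitrate difference of 0.74 with kinetin.

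Among the other 6 pairs of signals none of the 53 passed in limma, beside 0.0572% of all probe sets. Over these pairs 23 of 318 combinations of member and pair (7.23%) had an unadjusted p under 0.05, against 4.55% over all probe sets. The moderated F test for interactions of 3 or more signals was passed by 0% of all probe sets in limma. At an unadjusted p under 0.05 it counted 0 of the 53 and 748 of all 22746. The rule asks for a positive nitrate difference in nearly every background, which limits interactions of 3 or more signals that include nitrate. The count of 0 of the 53 was thus fixed in part by the choice of members. No conclusion is drawn from it.

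Backgrounds differed in how large the nitrate difference was. The median over the 53 was 1.82 with no other signal, 1.77 with IAA and kinetin, 1.72 with IAA and 1.64 with kinetin. It was 1.14 with ABA, 0.84 with ammonium, and 0.65 with ammonium, IAA and ABA, the lowest of 16, where 46 of the 53 were positive. Each background rests on 2 arrays against 2, and all probe sets shifted too. Their median ran from -0.38 for nitrate alone against mock to 0.38 with IAA, and was -0.36 in the lowest background. With ammonium, kinetin and ABA it was 0.28, where the median of the 53 was 0.75. The order of backgrounds is not corrected for these shifts. All 53 were positive in 5 backgrounds, among them that with all 4 other signals. The rule largely fixes such counts of positive signs.

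The other signals set the members apart from each other, with averaged differences whose sizes the rule had limited to under that of nitrate. ABA had the next largest absolute difference for 25 of the 53, ammonium and kinetin for 10 each, and IAA for 8. In limma 23 of the 53 passed for ABA, beside 27.3% of all probe sets. For kinetin 9 passed (beside 2.07%), for IAA 4 (beside 2.65%) and for ammonium 3 (beside 0.506%). The rule also touches these counts, so they and the calls for single genes describe the members only. Lowest with ABA among named genes were AT5G10210 (-1.86), BUBR1 (-1.28) and AT5G04730 (-1.21), and highest AT3G07350 (1.11), AT1G16170 (0.65) and AT1G61740 (0.55), all of which passed. The median over the 53 was -0.18, close to that over all probe sets (-0.19). With kinetin, AT1G49500 (1.42), AT1G67910 (0.87), AT4G37550 (0.78), 254644_at (1.40) and 259365_at were higher and passed, and AT5G04730 (-1.20) and 266477_at (-1.38) were lower and passed. AT5G10210 (-0.55) and AT5G07810 (-0.45) did not pass for kinetin.

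With IAA 38 of the 53 were negative (median -0.15), beside 53.6% of all probe sets (median -0.02). The rule had limited these sizes too, so the calls for IAA and ammonium describe the members only. Those that passed for IAA were 266477_at (-1.43), AT1G67910 (-1.40), 254644_at (-1.38) and AT1G16170 (-0.46). AT5G10210 (-0.66) did not pass, nor did the highest named genes, AT3G57160 (0.48), AT1G80380 (0.24) and AT1G70780 (0.14). With ammonium 38 of the 53 were positive (median 0.17), beside 59.7% of all probe sets (median 0.06). Nitrate was at 0.5 mM with ammonium and at 1 mM without it, so this averaged difference also holds a change in nitrate dose. The 2 cannot be told apart. The highest named genes were AT1G49500 (0.91), AT1G80380 (0.75) and AT3G43100 (0.71). Those that passed for ammonium were AT1G49500, AT3G16560 (0.66) and 262133_at (0.57). The lowest named genes were AT5G07810 (-0.40), AT3G44000 (-0.20) and AT3G47980 (-0.20). In AT1G67910 and 254644_at kinetin and IAA thus went opposite ways, and in 266477_at both were negative.

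**Figure D5:**
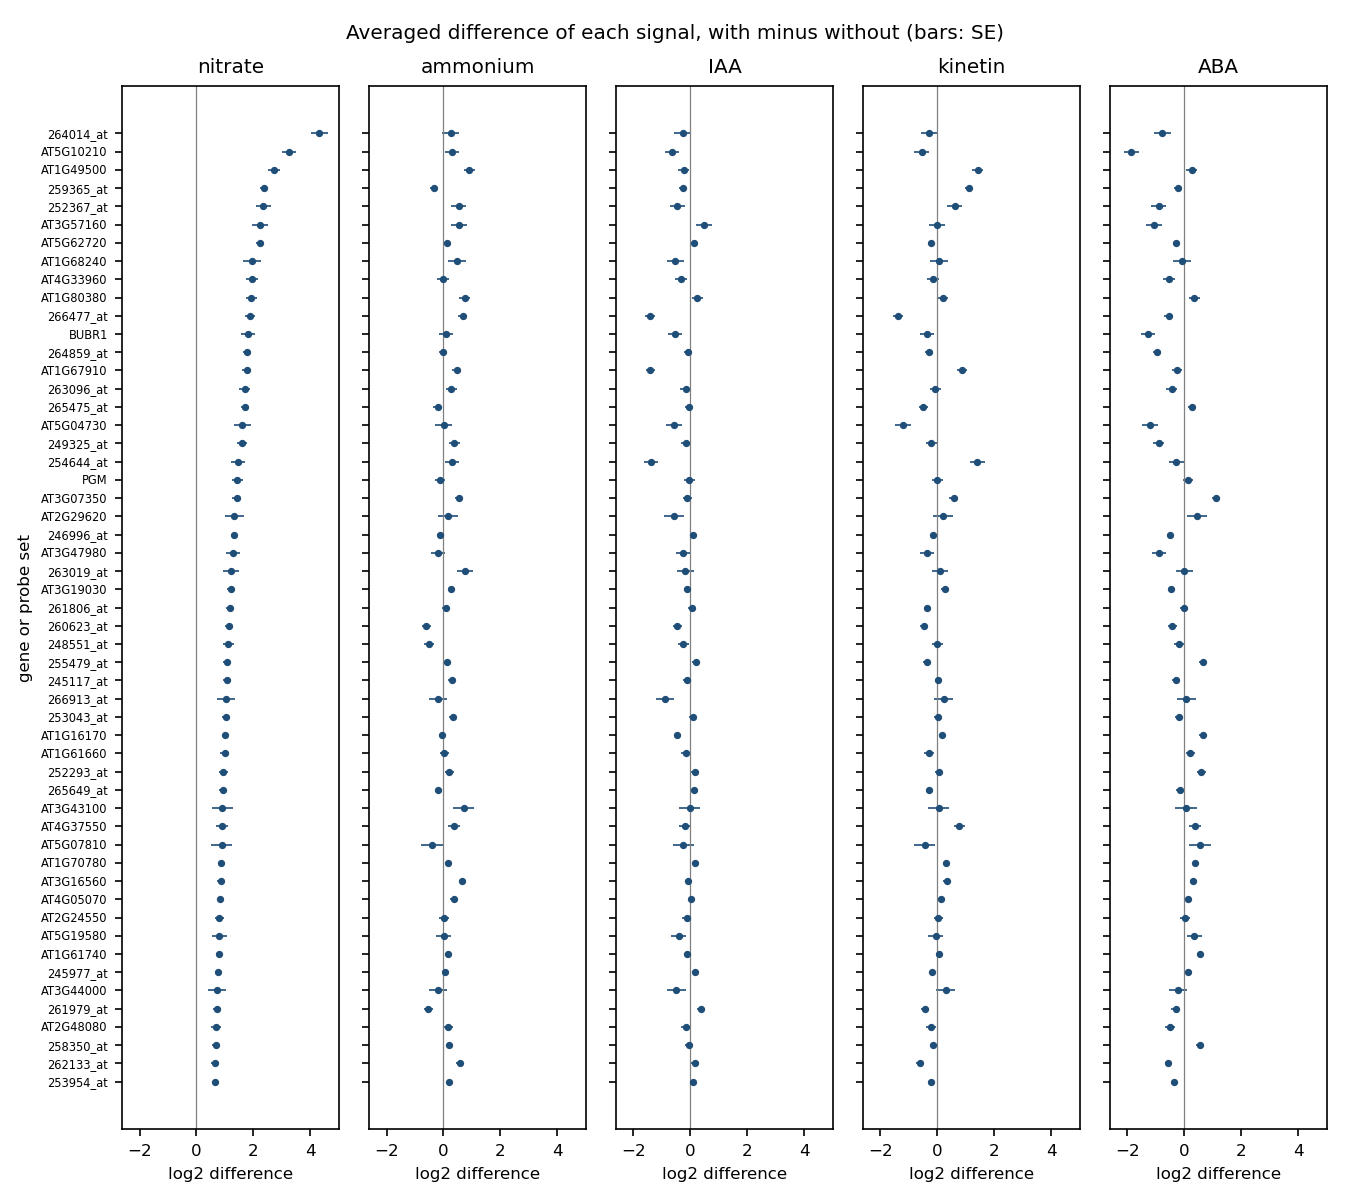
Averaged log2 difference with minus without each of the 5 signals (32 arrays against 32) for the 53 genes or probe sets, ordered by nitrate. Points are estimates and bars standard errors from limma. All points lie above 0 for nitrate, and lie on both sides of 0 for the other signals.

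Profiles over the 32 group means were also compared with the averaged nitrate difference removed. The median correlation over the 1378 pairs of members was 0.10, the highest 0.85 and the lowest -0.67. The closest other member correlated at over 0.5 for 44 of the 53, with a median of 0.65. Each of these values was picked as the largest over all other members, which raises it. No share for other probe sets is given beside them. The highest correlation of all pairs (0.85) joined AT4G33960 and AT2G48080. AT1G49500 was most like AT4G37550 (0.81), AT5G10210 most like BUBR1 (0.77), AT5G62720 most like 264859_at (0.68) and AT1G80380 most like AT1G70780 (0.71). These correlations carry array-wide shifts and the other 4 signals, and describe the members without a test.

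Other genes of the pathway could be followed only in part, since most have no named probe set here. Of the reductant list 3 of 13 genes were named, and PGD1 and PGD3 of the oxidative pentose phosphate pathway passed as higher, while PGD2 stood at -0.17. PGD3 (AT5G41670, 1.12) was 1 of 14 probe sets that met the first 2 conditions of the rule but not the third, since its ABA difference was slightly larger in size (-1.12). Of the nitrate regulators 4 of 24 were named, and HHO1 and HHO3 passed as higher in limma, while HHO2 (0.56) and NRG2 (0.04) did not. Of nitrate transport 1 of 14 was named, NRT2.5 at -0.31, and of carbon skeletons 1 of 6, the isocitrate dehydrogenase CICDH at 0.02, and neither passed. The lists of nitrogen assimilation, ammonium transport and cytokinin synthesis had no named gene. These list genes were known from earlier results of the same arrays, and none of those with a named probe set is among the 53. Whether other list genes are among the 25 members without a named gene cannot be told here.

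Duplicate arrays correlated across probe sets at 0.724 to 0.897, and no pair was identical. Array medians ranged from 103 to 304, and the number of arrays limits the precision. The labelled tissue was checked with the 2 named of 6 root genes, the root hair expansins EXPA7 and EXPA18, whose summed intensity ranged from 508 to 2407 without nitrate and from 340.2 to 2228 with nitrate. The 2 named of 7 green tissue genes, RCA and LHCB4.1, summed to between 190 and 1185 without nitrate and to between 144 and 1100 with it, and neither passed for nitrate. In whole roots, a change in the number of cells of a type and a change in RNA per cell cannot be told apart.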

How the data were processed

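Probe set intensities on a linear scale were deposited by the authors, who scaled each array: the mean over probe sets, without the lowest and highest 2%, was 500 on every array. The software is not given in the sources used here. Intensities were transformed as log2(value + 1), and the sizes of differences of dim probe sets depend on this constant. A model with 1 mean per group (32 means) was fitted by limma 3.58.1 (R 4.3.3), after a check on simulated data, to 22746 probe sets, with Benjamini-Hochberg adjustment within each comparison and no filter. Descriptions used pandas 2.3.3 and numpy 2.4.6. The annotation table of the platform gave 1 gene for 13513 probe sets, several for 503 and none for 8794; 13436 of the first, and all 28 named members, matched RefSeq (TAIR10.1, names and gene order only). Members and lists were chosen with earlier results of these data known. Genes to name were the 20 with the largest nitrate difference, the 3 highest and lowest for each other signal, and the 3 nearest the threshold on each side, which gave 24 members; the other 4 named members and the probe set IDs were named after their values were seen. Deviations of same-numbered arrays correlated weakly between groups (median 0.05, from -0.26 to 0.42 over 496 pairs of groups, 33.1% over 0.1). The numbers were not used to pair samples, and whether they mark a shared batch was not tested.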

Additional observations from a re-analysis of the deposited data

How the results depend on the processing

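None of the 53 passed in any interaction with nitrate under any alternative run. The median interactions kept their sign in every alternative except for kinetin in replicate 2 arrays only (-0.09). Nitrate with ammonium had a median of -0.47 with a pseudocount of 16, -0.37 with 64, -0.44 after quantile normalization and -0.47 in replicate 2 arrays only. Nitrate with IAA was at 0.094, 0.074 and 0.13 under the same 3 settings, and at 0.13 in replicate 1 arrays only. Nitrate with ABA was at -0.43 without the 40% dimmest probe sets, which leaves 40 of the 53, and at -0.45 in replicate 1 arrays only. With the array median as a covariate, nitrate with kinetin was at 0.0039.

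Leaving out each of the 64 arrays in turn gave medians of -0.60 to -0.44 for ammonium, 0.075 to 0.19 for IAA, 0.099 to 0.21 for kinetin and -0.46 to -0.28 for ABA, and 0 members called in each. The averaged nitrate difference then had 109 to 137 probe sets called higher (124 with all arrays), with 47 to 48 of the 53 among them, and the rule found 47 to 61 members. With 1 array per group 64 (replicate 1) and 56 (replicate 2) were called higher, on 32 arrays.

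The rule found 48 members with a pseudocount of 16, 43 with 64, 51 after quantile normalization (46 shared), 36 in replicate 1 arrays (30 shared) and 47 in replicate 2 arrays (30 shared). A threshold of 0.5 gave 56 and one of 0.8 gave 45. With a pseudocount of 64 the nitrate difference of 14 members was over 1.5 times smaller. With a replicate block, which the main fit did not use, 148 probe sets were called higher (124 without it). Of the 53, 48 were among them, and 0 members passed in an interaction. No array had an extreme median, so that alternative changes nothing, and the search for promoter motifs was not run because promoter sequences were not used here.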
